A study of Mus musculus with 2 samples.

Results

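The genes described here make, sense and move cholesterol. They were chosen as a list of 30 gene symbols (SREBP2 pathway genes, genes of liver X receptor signalling and transport, and Raly), and all 30 have a row in the deposited matrices of 31053 genes. By role, 4 sense sterols, 18 belong to synthesis, 7 to transport and storage, and 1 is Raly, which codes for an RNA-binding protein of the nucleus. The rule names genes and sets no threshold on a measured value, although the list was drawn up with earlier results of these data known.

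Single-nucleus RNA sequencing (snRNA-seq) counts unique molecular identifiers (UMIs, tags that mark 1 captured molecule each) in nuclei held in droplets. Inguinal white fat under the skin (iWAT) of male C57BL/6-background mice fed a Western diet was the source of the nuclei. Lexis is a long noncoding RNA. The labels give the genotype Lexis WT for 1 library and Lexis KO for the other, and each library pooled tissue of 3 mice. According to the study's methods, mice with a floxed Lexis allele were crossed with Adipoq-cre mice, in which an adipocyte promoter drives the recombinase, and littermates served as controls, so other cell types of the knockout depot should keep the allele. The protocol in the labels names the control group for both pools, ages are not given for these mice, and both pools had the same diet and sex. The genotype in each file's name is the reverse of its label. The Lexis transcript was not analysed here and gave no check of the labels, so each library is named by its label, as labelled WT or labelled KO. With 1 library of pooled mice per genotype there is no replicate. No test between genotypes was possible, no p-value is given, and the 95% intervals reflect counting error alone.

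Animal cells build cholesterol from acetyl-CoA through mevalonate, squalene and lanosterol. When membrane sterol is low, SCAP escorts the transcription factor SREBP2 out of the endoplasmic reticulum and synthesis genes are switched on, and INSIG proteins hold the complex back when sterol is plentiful. Oxysterols activate the liver X receptors (LXRs), which raise the exporters ABCA1 and ABCG1. Adipocytes hold a large pool of free cholesterol in membranes and droplet surfaces, and macrophages of fat take up, esterify and export cholesterol.

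Promoter sequence was read because SREBP2 acts at promoters together with factors that bind CCAAT boxes. A window of 300 bases (250 before and 50 after the annotated start, RefSeq, GRCm38.p6) was given for 25 of the 30 genes. Fdps, Fdft1, Sqle, Npc1 and Abcg1 had no window. The CCAAT box (CCAAT on either strand) lay in 14 of 15 windows of synthesis genes (93.3%), 3 of 4 of sensing genes, 2 of 5 of transport genes and not in that of Raly. Of all 32851 windows 37.4% held it, and of the 27025 genes they belong to, 41.1% had it in at least 1 window. An 8-base core of the sterol element (CACCCCAC on either strand) lay in the windows of Acat2, Hmgcs1 and Raly, against 2.87% of all windows and 3.30% of genes. An exact LXR element (AGGTCA, any 4 bases, AGGTCA, on either strand) lay in none of the 25 windows and in 5 of the 32851. These are matches of letters and not mapped binding sites. The windows of 4 sensing and synthesis genes described below, 3 with a ratio in adipocyte-like nuclei below 1 and Acat2 with one above 1, are given 5′ to 3′, with CCAAT boxes (ATTGG where read from the other strand) and sterol element cores in capitals.
Insig1 (chr5:28071162-28071461, plus strand): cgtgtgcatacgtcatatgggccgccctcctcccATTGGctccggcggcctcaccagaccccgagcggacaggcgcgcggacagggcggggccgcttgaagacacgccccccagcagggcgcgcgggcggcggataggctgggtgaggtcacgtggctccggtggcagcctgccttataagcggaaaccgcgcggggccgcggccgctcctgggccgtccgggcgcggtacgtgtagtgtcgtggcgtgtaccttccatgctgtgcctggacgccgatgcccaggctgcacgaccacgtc
Hmgcs1 (chr13:119690101-119690400, plus strand): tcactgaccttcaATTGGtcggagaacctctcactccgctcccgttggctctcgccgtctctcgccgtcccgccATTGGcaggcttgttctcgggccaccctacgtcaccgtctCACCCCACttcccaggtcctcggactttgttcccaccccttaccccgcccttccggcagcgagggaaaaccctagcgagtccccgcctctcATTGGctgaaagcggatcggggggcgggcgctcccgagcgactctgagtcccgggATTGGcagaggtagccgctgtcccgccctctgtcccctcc
Lss (chr10:76531355-76531654, plus strand): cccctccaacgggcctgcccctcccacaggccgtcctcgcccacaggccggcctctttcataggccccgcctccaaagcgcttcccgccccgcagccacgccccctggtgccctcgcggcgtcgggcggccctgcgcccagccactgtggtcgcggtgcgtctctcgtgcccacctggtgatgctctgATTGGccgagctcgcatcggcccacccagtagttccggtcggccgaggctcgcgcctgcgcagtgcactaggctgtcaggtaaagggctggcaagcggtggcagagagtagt
Acat2 (chr17:12960676-12960975, minus strand): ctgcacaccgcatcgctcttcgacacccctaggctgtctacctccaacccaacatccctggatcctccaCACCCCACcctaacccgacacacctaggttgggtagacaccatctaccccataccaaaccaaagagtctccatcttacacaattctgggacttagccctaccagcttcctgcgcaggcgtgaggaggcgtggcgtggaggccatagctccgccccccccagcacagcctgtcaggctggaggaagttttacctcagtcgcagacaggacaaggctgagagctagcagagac
The Hmgcs1 window holds 4 CCAAT boxes and 1 core, which begins at position -136 from the start site. Insig1 and Lss each have 1 CCAAT box and no core. Acat2 has 1 core, at position -181, and no CCAAT box.

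Over 5000 barcodes each, the library labelled WT had 9376351 UMIs and the one labelled KO 19655049. Of nuclei with at least 500 genes and at most 5% mitochondrial UMIs, 3503 and 2852 were kept after removal of doublets, with medians of 1195 and 3879 UMIs, and 10 of their barcodes occurred in both libraries. Marker genes named 417 and 894 adipocyte-like nuclei, 300 and 786 adipogenic stem and precursor-like (ASPC-like) nuclei, 332 and 838 myeloid-like, 2100 and 107 lymphocyte-like, and 94 and 122 endothelial-like nuclei in the libraries labelled WT and KO. The depot was dissected without the lymph node according to the labels, yet lymphocyte-like nuclei made up 59.9% of nuclei labelled WT and 3.75% of those labelled KO. All 12 adipocyte markers were detected in adipocyte-like nuclei, at a summed 11444 and 21450 CPM (UMIs of a gene per 1000000 UMIs of its class and library), and at 695 and 1302 CPM in lymphocyte-like nuclei. The 14 lymphocyte markers summed to 349 CPM in adipocyte-like nuclei labelled WT and to 17.8 CPM in those labelled KO. Myeloid markers summed to 435 and 180 CPM there.

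Levels were ranked over the 5 named classes with most nuclei, without the mural-like and myocyte-like nuclei. The unnamed nuclei (250 labelled WT and 9 labelled KO) were left out as well. In both libraries, 6 genes of the list were highest in adipocyte-like nuclei with an interval of the ratio to the next class that lay above 1. These were Insig1, which retains SCAP in the endoplasmic reticulum, and the synthesis genes Acat2 (acetoacetyl-CoA thiolase), Hmgcs1 (HMG-CoA synthase), Lss (lanosterol synthase), Nsdhl (a sterol dehydrogenase) and Sc5d (sterol desaturase). Npc1, a lysosomal cholesterol exporter, and Soat1, which esterifies cholesterol for storage, were highest in myeloid-like nuclei in both, and Srebf2 in lymphocyte-like nuclei. Outside this ranking, the 52 myocyte-like nuclei labelled KO had Npc1 at 193 CPM (144 to 253, 51 UMIs), above the 99.1 CPM of myeloid-like nuclei of that library. The 9 unnamed nuclei labelled KO had Srebf2 at 416 CPM (200 to 766, 10 UMIs), above the 108 CPM of lymphocyte-like nuclei. Their Hmgcs1 was at 208 CPM (67.6 to 486, 5 UMIs), an interval that includes the 136 CPM of adipocyte-like nuclei. In all, 15 of 30 genes had the same highest class in both libraries, and 9 of those were separated from the next class in both. The ranking was not made over all genes, so these counts, and the 6 above, describe the list without a general share.

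**Figure D1:**
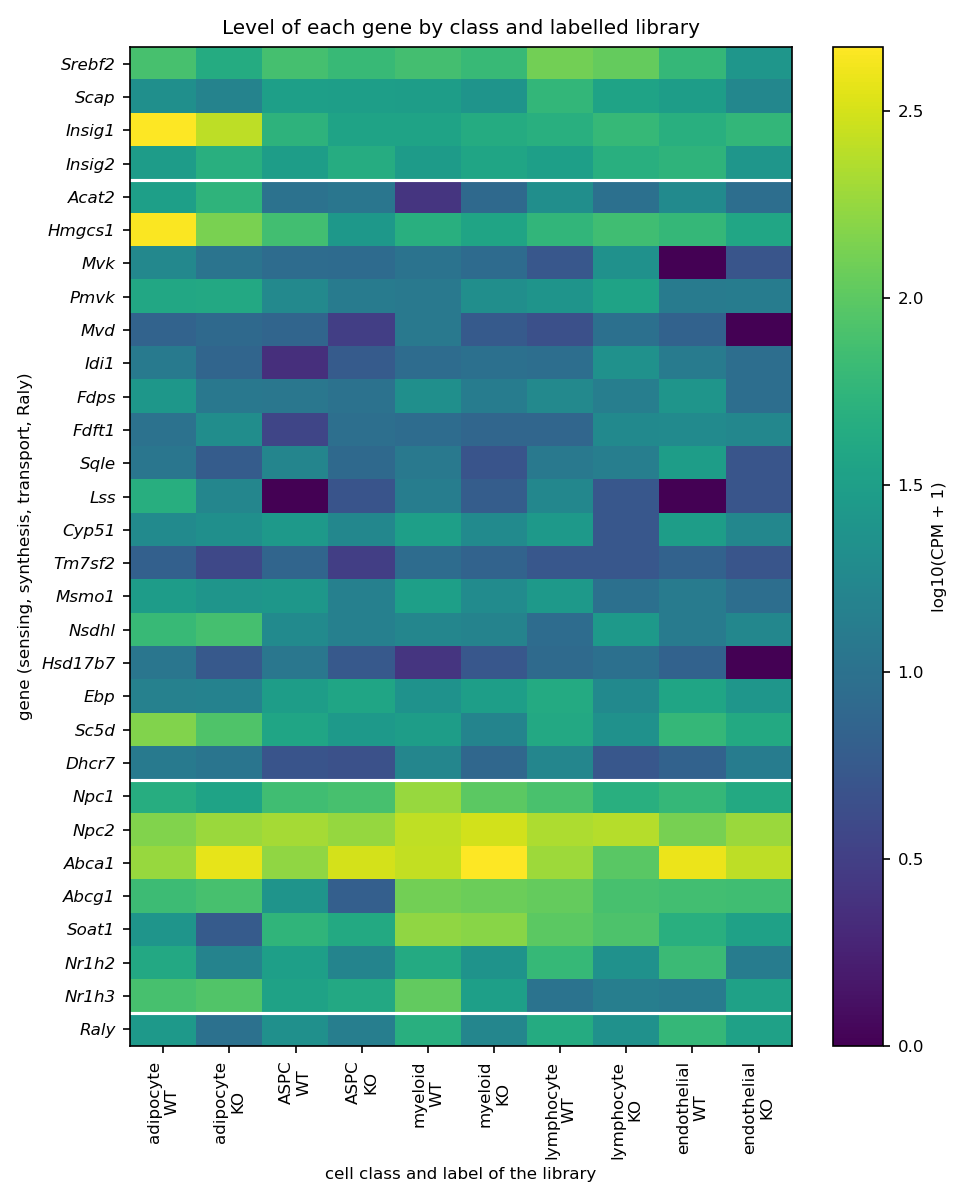
Level of each of the 30 genes (rows, by role) in each of 5 classes of each library (columns), as log10 of CPM plus 1. Hmgcs1 and Insig1 stand out in adipocyte-like nuclei, at 457 and 469 CPM in the library labelled WT, and Soat1 in myeloid-like nuclei, at 167 and 156 CPM.

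Lymphocyte-like nuclei served as a reference, whose UMIs can come from expression of their own and from RNA free in the droplets. In the library labelled WT, Insig1 was at 469 CPM in adipocyte-like and 47.2 CPM in lymphocyte-like nuclei, a ratio of 9.93 (interval 8.21 to 12.1). Hmgcs1 was at 457 and 56.5 CPM, a ratio of 8.09 (6.78 to 9.71). Nsdhl was at 62.7 and 7.80 CPM, or 8.05-fold (4.99 to 13.6). Sc5d differed 3.66-fold (2.91 to 4.63) and Lss 2.86-fold (1.96 to 4.22). Nr1h3, which codes for LXRα, was 8.19-fold higher (5.30 to 13.2). These 6 were the genes at 2-fold or more among 23 with at least 50 counts, against 14.3% of all genes tested. Acat2 and Pmvk stood less far above the reference, at 1.55-fold (1.05 to 2.30) and 1.65-fold (1.16 to 2.36). A ratio of 0.5 or less to the reference was found for 3 of the 23 genes labelled WT (Scap, Ebp and Soat1), against 32.8% of all genes. Raly lay below it as well, at 0.612 (0.430 to 0.860). Soat1 was at 23.7 CPM in adipocyte-like and 99.8 CPM in lymphocyte-like nuclei labelled WT, and at 4.86 and 82.4 CPM in those labelled KO. Raly was at 26.2 and 42.9 CPM in the same classes labelled WT.

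In the library labelled KO, the reference rests on 107 lymphocyte-like nuclei. Of these, 59 lay in cluster 14 (the T cell markers of cluster 2, with Klra8 and Ncr1 leading) and 31 in cluster 17 (B cell markers). In the library labelled WT, 1228 of 2100 lay in cluster 0 (B cell markers) and 779 in cluster 2 (T cell markers). The reference is thus a different mix of cells in each library. Adipocyte-like nuclei were at least 2-fold above it for 10 of 27 genes, against 19.8% of all genes. For 6 of these the interval stayed above 1. Insig1 was 4.22-fold higher (2.51 to 7.72), Abca1 3.92-fold (2.59 to 6.27), Sc5d 3.90-fold (1.66 to 12.0), Nsdhl 2.89-fold (1.32 to 7.90), Nr1h3 6.79-fold (2.32 to 33.0) and Acat2 6.19-fold (1.70 to 51.2, on 2 UMIs in lymphocyte-like nuclei). Hmgcs1 was 1.96-fold higher (1.20 to 3.44). A ratio of 0.5 or less was found for 6 of the 27 genes (Srebf2, Scap, Mvk, Idi1, Soat1 and Raly), against 28.4% of all genes, and the interval includes 1 for Mvk and Raly.

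Adipocyte-like nuclei of the 2 libraries were then compared. They fell into different clusters, cluster 4 for the library labelled WT (417 of 417) and cluster 1 for the library labelled KO (889 of 894). Each nucleus labelled KO gave 2.07 times as many UMIs as one labelled WT, 9667 against 4663. Each gene is therefore given in CPM and as UMIs per nucleus. Fewer transcripts of a gene and more transcripts of other genes cannot be told apart in CPM.

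The synthesis genes summed to 950 CPM in adipocyte-like nuclei labelled WT and to 539 CPM in those labelled KO, a ratio of 0.568 (interval 0.538 to 0.600). Per nucleus this was 4.43 and 5.21 UMIs. The sensing genes summed to 595 and 361 CPM (0.606, 0.567 to 0.649), with 2.77 and 3.49 UMIs per nucleus. Transport genes were at 578 and 777 CPM (1.34, 1.26 to 1.43), with 2.70 and 7.51 UMIs per nucleus. All 30 genes together were at 2149 and 1686 CPM, a ratio of 0.785 (0.758 to 0.812). In each group 1 gene gave a large part of the UMIs. Without Hmgcs1 the synthesis ratio was 0.819 (0.762 to 0.881), without Insig1 the sensing ratio was 0.829 (0.719 to 0.958), and without Abca1 the transport ratio was 1.01 (0.938 to 1.10).

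Of the 30 genes, 29 had at least 50 counts over both libraries, and Tm7sf2 (a sterol reductase) did not, with 11 and 24 UMIs. A ratio of 2 or more was found for 2 of 29 (6.90%), against 26.0% of the 11350 genes tested in these nuclei. A ratio of 0.5 or less was found for 8 of 29 (27.6%), against 17.6% of all. That count was 13 without mitochondrial genes and Malat1 in the totals, 5 after centring on intronic length and 2 after thinning every nucleus to 1000 UMIs, and the count at 2 or more was 0 under the first 2 of these. Of all genes, 12.3% were at 0.5 or less and 19.6% at 2 or more after centring. Shares of all genes under the other settings are not given. Thinning leaves fewer counts per gene, with Soat1 found in 5 nuclei labelled WT and 3 labelled KO. How many genes then had enough counts is not given, so the count of 2 is not comparable with 8 of 29. The interval lay above 1 for 5 genes and below 1 for 14, against 36.4% and 35.1% of all genes tested. It included 1 for 10. The median log2 ratio was -0.40 over the 29 genes and -0.01 over all genes tested.

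Among the sensing genes, Insig1 (ENSMUSG00000045294) was at 469 CPM (439 to 500) in nuclei labelled WT and at 256 CPM (246 to 267) in those labelled KO, a ratio of 0.547 (0.506 to 0.591). Per nucleus it had 2.18 and 2.48 UMIs. Srebf2, the gene of SREBP2, was at 76.6 and 42.7 CPM (0.557, 0.459 to 0.679), or 0.357 and 0.413 UMIs per nucleus. Scap was at 20.6 and 14.6 CPM, with an interval that includes 1 (0.493 to 1.04). Insig2, the second retention protein, went the other way, at 29.3 and 47.6 CPM, a ratio of 1.62 (1.23 to 2.18). The 2 INSIG genes thus lay on opposite sides of 1.

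Hmgcs1 (ENSMUSG00000093930), whose enzyme condenses acetyl-CoA with acetoacetyl-CoA ahead of mevalonate, had the lowest ratio of the synthesis genes. It was at 457 CPM (428 to 488) in nuclei labelled WT and 136 CPM (128 to 144) in those labelled KO, a ratio of 0.297 (0.272 to 0.325). It was lower per nucleus as well, at 2.13 and 1.31 UMIs, although the nuclei labelled KO were deeper. Hmgcs1 was also lower in ASPC-like nuclei, at 71.6 and 25.3 CPM (0.354, 0.249 to 0.507). At 1000 UMIs per nucleus its shares there were 4.58% and 3.54% of nuclei, a difference of -1.04 points whose interval includes 0 (-4.54 to 1.65). In myeloid-like nuclei it was at 46.9 and 35.6 CPM, and in lymphocyte-like nuclei at 56.5 and 69.4 CPM, both with intervals that include 1.

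Lss, which closes squalene epoxide into lanosterol, was at 46.8 and 15.7 CPM (0.336, 0.256 to 0.443) and at 0.218 and 0.152 UMIs per nucleus. Fdps, farnesyl diphosphate synthase, was at 24.7 and 10.8 CPM (0.436, 0.304 to 0.631). Hsd17b7, a ketoreductase that acts on sterol intermediates, had a ratio of 0.450 (0.257 to 0.812) and Sqle, squalene epoxidase, one of 0.484 (0.278 to 0.868), on 20 UMIs each in the library labelled WT. Sc5d was at 147 and 84.6 CPM (0.575, 0.501 to 0.662). Mvk, mevalonate kinase, and Idi1, the isopentenyl diphosphate isomerase, had ratios of 0.584 (0.384 to 0.907) and 0.573 (0.344 to 0.985). Idi1 turned to 1.14 (0.187 to 12.0) when nuclei were thinned to 1000 UMIs. In all, 8 of the 17 synthesis genes with enough counts had intervals below 1, against 35.1% of all genes tested. Centred on intronic length, 5 of the 17 had log2 intervals below 0 and 4 above 0. The intervals of Sqle, Mvk and Idi1 then included 0.

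Acat2 and Fdft1 stood on the other side. Acat2, whose enzyme makes the acetoacetyl-CoA that Hmgcs1 uses, was at 30.9 CPM (labelled WT) and 53.7 CPM (labelled KO), a ratio of 1.74 (1.33 to 2.32). Neighbouring steps of the pathway therefore differed in direction between the libraries. Fdft1, squalene synthase, was at 9.26 and 19.2 CPM (2.07, 1.27 to 3.59), on 18 and 166 UMIs. For 7 synthesis genes the interval included 1. These were Pmvk (phosphomevalonate kinase, 38.6 and 40.4 CPM), Nsdhl (62.7 and 75.2 CPM), Mvd (the decarboxylase that makes isopentenyl diphosphate), Cyp51 (lanosterol demethylase), Msmo1 (a sterol oxidase), Ebp (a sterol isomerase) and Dhcr7 (the last reductase of one branch), with ratios from 0.801 to 1.20. Centred on intronic length, Pmvk (0.10 to 0.84) and Ebp (0.15 to 1.41) had log2 intervals above 0.

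**Figure D2:**
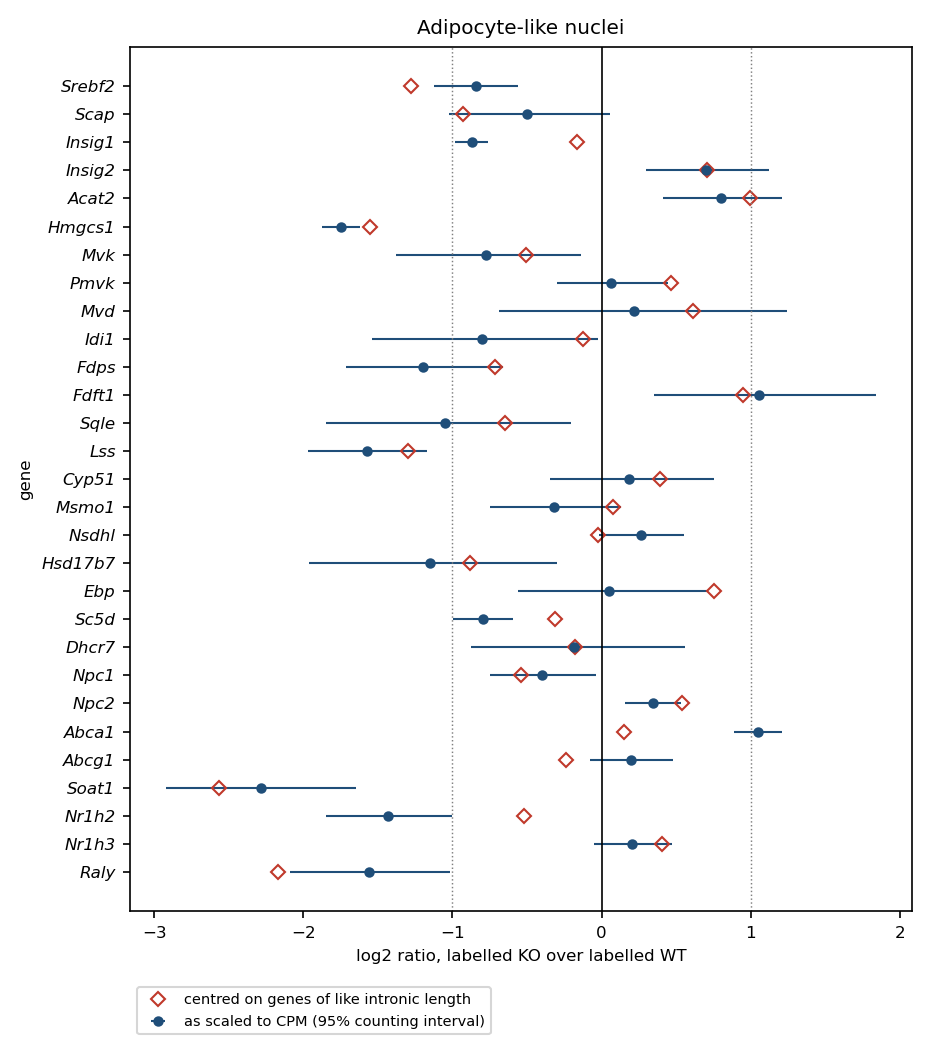
Log2 ratio of CPM in adipocyte-like nuclei, labelled KO over labelled WT, for the 29 genes with at least 50 counts (filled points, with 95% counting intervals), and the same ratio centred on genes of like intronic length (open diamonds). Hmgcs1 lies at -1.75 and -1.55, and Abca1 moves from 1.05 to 0.15.

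Among the transport genes, Abca1 (ENSMUSG00000015243), which exports cholesterol to apolipoproteins, was at 181 CPM (163 to 201) and 374 CPM (362 to 387), a ratio of 2.07 (1.85 to 2.31). Per nucleus this was 0.844 and 3.62 UMIs, the widest gap of the transport genes. Abcg1, which exports to lipoprotein particles, was at 66.9 and 76.5 CPM, with an interval that includes 1 (0.947 to 1.39). Nr1h3 was at 76.6 and 88.4 CPM (1.15, 0.967 to 1.38), while Nr1h2, the gene of LXRβ, was at 39.6 and 14.7 CPM (0.371, 0.277 to 0.499). Npc2, the lysosomal carrier that hands cholesterol to NPC1, was at 145 and 184 CPM (1.27, 1.12 to 1.44), and Npc1 was at 45.3 and 34.4 CPM (0.759, 0.597 to 0.975). Soat1 had the lowest ratio of all, 0.205 (0.132 to 0.319), from 46 and 42 UMIs, and Raly had 0.340 (0.235 to 0.494), from 51 and 77. Both had lower CPM than in lymphocyte-like nuclei of the same library, although for Raly in the library labelled KO the interval of that ratio includes 1 (0.169 to 1.30). Nr1h2, Npc1, Npc2 and Abcg1 also had lower CPM than in lymphocyte-like nuclei in both libraries, as did the sensing genes Srebf2, Scap and Insig2. Some of these gaps were slight. Insig2 was at 29.3 against 31.6 CPM when labelled WT. When labelled KO it was at 47.6 against 47.7 CPM, and the interval of lymphocyte-like over adipocyte-like includes 1 (0.497 to 1.81). Abcg1 was at 76.5 against 78.1 CPM when labelled KO. In lymphocyte-like nuclei Nr1h2 was at 61.2 and 21.7 CPM and Srebf2 at 124 and 108 CPM. The summed lymphocyte markers were 349 CPM in the adipocyte-like nuclei labelled WT and 17.8 CPM in those labelled KO. Their part in these ratios was not tested.

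Counts per nucleus were read beside the 2.07-fold gap in depth. Lower UMIs per nucleus in the library labelled KO were found for 7 of the 29 genes: Hmgcs1, Fdps, Lss, Hsd17b7, Soat1, Nr1h2 and Raly. Of all genes tested, 15.9% were lower per nucleus. For 22 genes the UMIs per nucleus were as high or higher, up to 4.30-fold for Fdft1 and 4.29-fold for Abca1.

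**Figure D3:**
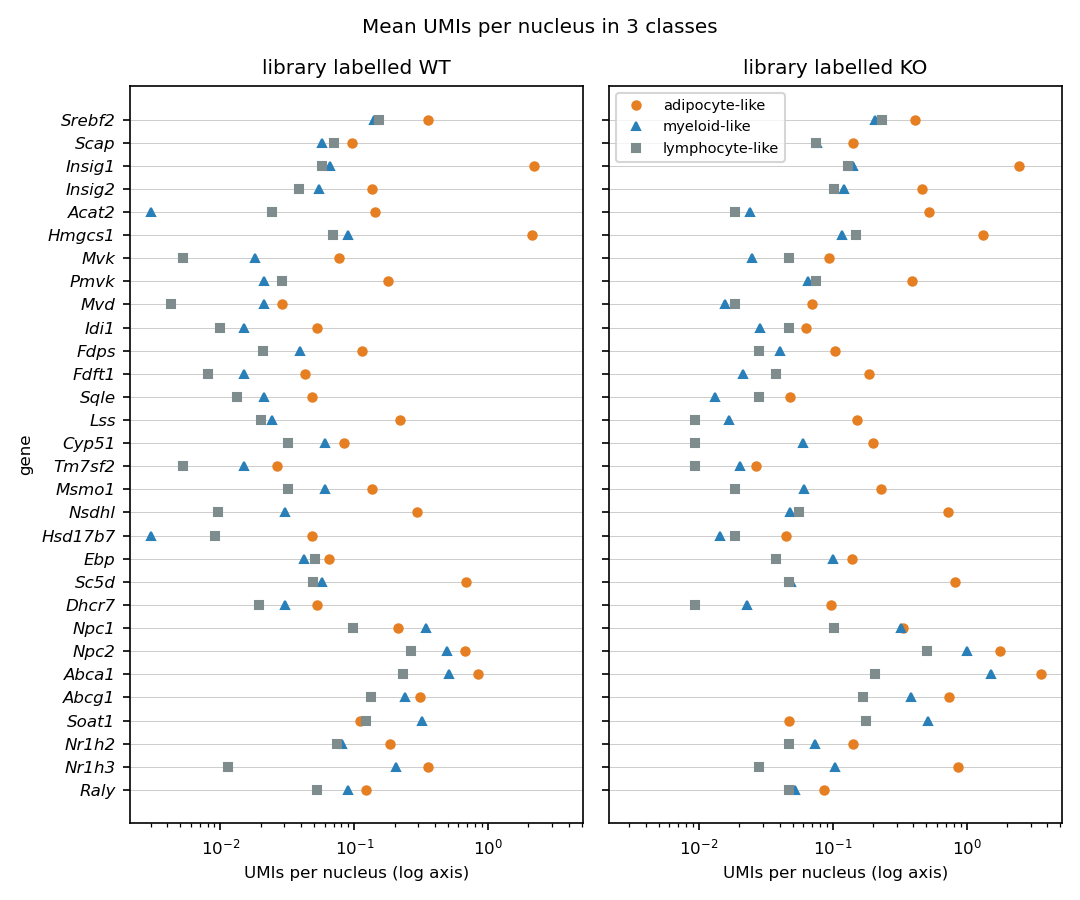
Mean UMIs per nucleus (log axis) of each gene in adipocyte-like, myeloid-like and lymphocyte-like nuclei, with the library labelled WT in the left panel and the library labelled KO in the right. In adipocyte-like nuclei Hmgcs1 lies at 2.13 and 1.31 in the libraries labelled WT and KO, Insig1 at 2.18 and 2.48, and Abca1 at 0.844 and 3.62.

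Nuclear reads fall partly in introns, and genes with long introns were higher in the library labelled KO as a whole. Over all genes tested in adipocyte-like nuclei, the median log2 ratio was -0.89 for 1301 genes with at most 3000 intronic bases and 1.47 for 1440 genes with over 100000. Ratios were therefore also centred on the median of genes of like intronic length. Abca1 has 118746 intronic bases, and genes of its length had a median log2 ratio of 0.90. Its centred log2 ratio was 0.15, with an interval that includes 0 (-0.01 to 0.31). Insig1, with 4603 intronic bases, moved from -0.87 to -0.16 (-0.27 to -0.05). Nr1h2, with 970 intronic bases, moved from -1.43 to -0.52 (-0.94 to -0.09). Hmgcs1, placed by its RefSeq gene span, remained at -1.55 (-1.68 to -1.42), Lss at -1.30 (-1.69 to -0.90), Srebf2 at -1.28 (-1.56 to -0.99), Soat1 at -2.57 (-3.21 to -1.93) and Raly at -2.17 (-2.70 to -1.63). These were the 5 of 29 genes with a centred ratio of 0.5 or less, against 12.3% of all genes. No gene of the list had a centred ratio of 2 or more, against 19.6% of all. Acat2 came nearest, at 1.00 when rounded (0.61 to 1.41), followed by Fdft1 at 0.95 (0.24 to 1.74).

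**Figure D4:**
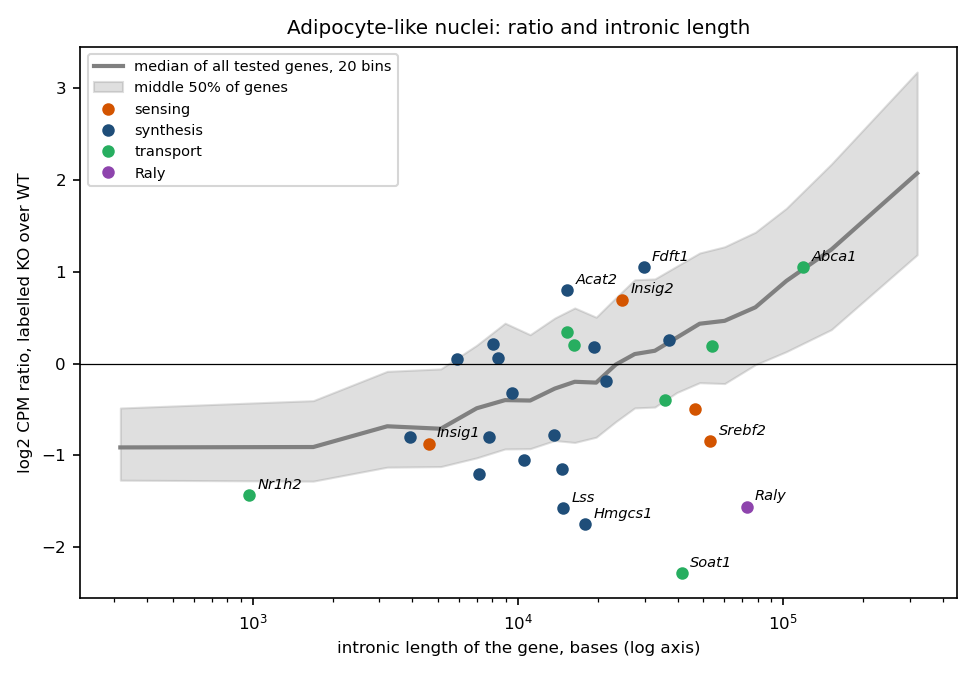
Log2 ratio of CPM in adipocyte-like nuclei (labelled KO over labelled WT) against the intronic length of the gene (log axis), for the 29 genes with at least 50 counts, with the median (line) and middle 50% (band) of all genes in 20 length bins. Abca1 lies on the line (0.15 above the median of its bin), while Srebf2, Hmgcs1, Lss, Raly and Soat1 lie furthest below the line, at -1.28 to -2.57 from it.

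Shares of nuclei were compared after each nucleus had been thinned to 1000 UMIs, which left out 10 adipocyte-like nuclei labelled WT and 5 labelled KO. A UMI of any synthesis gene was found in 57.7% of 407 nuclei labelled WT (52.8 to 62.6) and in 38.6% of 889 labelled KO (35.4 to 41.9), a difference of -19.2 percentage points (-25.0 to -13.2). At 500 UMIs per nucleus the difference was -9.06 points (-14.6 to -3.67). Before thinning the shares were 88.0% and 92.3%. In lymphocyte-like nuclei, thinned alike, they were 26.6% and 26.1%. Thinning left out 1021 of 2100 lymphocyte-like nuclei labelled WT and 15 of 107 labelled KO, so their shares rest on the deeper nuclei. For Hmgcs1 alone the thinned shares were 36.6% and 9.90%, against 5.00% and 5.43% in lymphocyte-like nuclei and 71.2% and 48.3% before thinning. Its difference was -26.7 points (-31.9 to -21.5), wider than that of the group. Other synthesis genes read singly differed by -2.82 (Sc5d, -6.65 to 0.64), 0.51 (Nsdhl, -2.63 to 3.28) and 3.05 points (Acat2, 0.60 to 5.19). A group share without Hmgcs1 is not given, so the group difference may be that of Hmgcs1. Insig1 was found in 32.9% and 19.3%, against 4.54% and 4.35% in lymphocyte-like nuclei. For Abca1 the thinned shares were 12.8% and 28.6%. The first is below the 15.8% of lymphocyte-like nuclei labelled WT, so it is not read as above background, and the second is above the 9.78% of those labelled KO. The lymphocyte-like nuclei of the libraries are different mixes of clusters, so these shares are unlike references. Hmgcs1 UMIs were spread over many nuclei, with 5.51% and 4.60% of them in the 3 nuclei that held most.

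In myeloid-like nuclei the 30 genes summed to 1650 CPM when labelled WT and 1603 CPM when labelled KO, a ratio of 0.972 (0.908 to 1.04). Of 19 genes with enough counts, none had a ratio of 2 or more, against 24.4% of all genes tested in these nuclei, and 2 had a ratio of 0.5 or less, against 12.8%. These were Nr1h3, at 106 and 31.6 CPM (0.297, 0.214 to 0.414), and Raly, at 46.9 and 16.0 CPM (0.340, 0.209 to 0.561). Abca1 was at 264 and 465 CPM (1.76, 1.50 to 2.08), and at -0.19 (-0.43 to 0.05) on the log2 scale once centred on intronic length. Npc1 was at 180 and 99.1 CPM (0.551, 0.441 to 0.691). Soat1 was at 167 and 156 CPM and Abcg1 at 125 and 117 CPM, both with intervals that include 1. The transport genes summed to 1143 and 1196 CPM (1.05, 0.965 to 1.14), and to a ratio of 0.832 (0.757 to 0.915) without Abca1. Against lymphocyte-like nuclei, myeloid-like nuclei were at least 2-fold higher for 2 of 22 genes in the library labelled WT (10.9% of all genes), Nr1h3 (11.4-fold, 7.05 to 18.9) and Npc1 (2.25-fold, 1.78 to 2.84). A ratio of 0.5 or less was found there for 2 genes, Acat2 (1 and 51 UMIs) and Pmvk (7 and 60 UMIs), against 13.9% of all genes. In the library labelled KO they were so for 5 of 16 genes (20.4% of all genes), and of these the interval lay above 1 for Abca1 (4.87-fold, 3.21 to 7.81) and Npc1 (2.08-fold, 1.14 to 4.21). None of the 16 had one of 0.5 or less, against 11.3% of all genes.

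Different clusters hold the myeloid-like nuclei of the libraries. Those labelled WT lay mostly in cluster 7 (312 of 332, with Timd4 among its leading genes). Those labelled KO lay in cluster 3 (542 nuclei, Vsig4 among the leading genes) and cluster 9 (277 nuclei, led by Dcstamp and St18). Clusters were built from the same counts, though 2 of the 30 genes were among the 2000 that drove the clustering, so the values between clusters are a description. Abca1 was at 633 CPM in cluster 3 and 153 CPM in cluster 9, a ratio of 0.241 (0.201 to 0.287), and at 280 CPM in cluster 7. Soat1 was at 101 and 257 CPM (2.55, 2.10 to 3.11), Abcg1 at 68.2 and 209 CPM (3.07, 2.43 to 3.88), Nr1h3 at 21.2 and 52.0 CPM (2.45, 1.57 to 3.84), Srebf2 at 43.6 and 101 CPM (2.31, 1.70 to 3.16) and Cyp51 at 8.94 and 36.1 CPM (4.04, 2.17 to 7.83) in clusters 3 and 9. So the exporters ABCA1 and ABCG1 had opposite orders between these clusters. A ratio of cluster 9 over cluster 3 of 2 or more was found for 5 of 16 genes, against 7.99% of all genes, and one of 0.5 or less for 1, against 8.11%. In cluster 7 Nr1h3 was at 113 CPM, above both clusters of the library labelled KO.

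In ASPC-like nuclei the 30 genes summed to 1095 and 1065 CPM (0.972, 0.902 to 1.05). Of 18 genes with enough counts none had a ratio of 2 or more, against 24.9% of all genes, and 2 had one of 0.5 or less, against 8.6%, namely Hmgcs1 and Nr1h2 (31.2 and 15.1 CPM). Centred on intronic length, Nr1h2 was at -0.42 on the log2 scale with an interval that includes 0 (-1.15 to 0.35), and the 2 genes at 0.5 or less were Hmgcs1 (-1.45) and Raly (-1.36). A centred share of all genes is not given for this class. Abca1 was at 169 and 317 CPM (1.88, 1.56 to 2.27), and at -0.09 (-0.35 to 0.19) once centred. The library labelled KO held most of its ASPC-like nuclei in clusters 5 and 6, and the library labelled WT in cluster 8. Between cluster 5, with Col1a1 among its markers, and cluster 6, with Pi16 and Dpp4, none of 13 genes reached a ratio of 2 or more or of 0.5 or less, against 8.14% and 7.03% of all genes. Abca1 was lower in cluster 5 than in cluster 6 (279 and 380 CPM, 0.733, 0.647 to 0.830) and Npc2 higher (193 and 134 CPM, 1.43, 1.19 to 1.73).

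In lymphocyte-like nuclei the sum was 1408 and 1154 CPM (0.820, 0.721 to 0.929). None of 18 genes had a ratio of 2 or more and 5 had one of 0.5 or less, against 16.1% and 19.6% of all genes, and of these 5 the interval excluded 1 for Cyp51 (67 and 1 UMIs) and Nr1h2. Centred on intronic length, the log2 intervals of Cyp51 (-7.63 to 0.22) and Nr1h2 (-2.29 to 0.61) include 0. Abca1 was at 190 and 95.4 CPM (0.503, 0.312 to 0.770). Within the library labelled WT, Abca1 was at 245 CPM in cluster 0 (B cell markers) and 128 CPM in cluster 2 (T cell markers), and Npc2 at 163 and 303 CPM. Lymphocyte-like nuclei labelled KO lay mostly in clusters 14 and 17, so ratios between the libraries compare different mixes of cells. Endothelial-like nuclei had 2 genes with enough counts, Abca1 at 388 and 253 CPM (0.651, 0.452 to 0.937) and Npc2 at 131 and 184 CPM.

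Other genes of the pathway were taken from a second list of 19, of which Faxdc2 was not analysed here. In adipocyte-like nuclei 11 had enough counts, of which 1 had a ratio of 2 or more (Aacs) and 2 had one of 0.5 or less (Lbr and Lipa), against 26.0% and 17.6% of all genes. The interval lay above 1 for 2 and below 1 for 7, against 36.4% and 35.1%. The other genes named below were picked after their values were seen. Aacs, which activates acetoacetate in the cytosol for lipid synthesis, had 50 and 2153 UMIs, or 25.7 and 249 CPM, a ratio of 9.69 (7.32 to 13.1). Its centred log2 ratio was 2.99 (2.59 to 3.43), and it was at 22.7 CPM or less in the other clusters of at least 50 nuclei in the library labelled KO. Lpcat3, an LXR target that remodels phospholipids, had a ratio of 1.26 (1.06 to 1.49). Mylip, another LXR target, lay on the other side, at 22.1 and 14.3 CPM (0.649, 0.455 to 0.941). Centred on intronic length, the log2 intervals of both include 0, at 0.05 (-0.19 to 0.29) for Lpcat3 and -0.42 (-0.93 to 0.12) for Mylip. A further LXR target, Arl4c, had too few counts, with 37 and 10 UMIs. Srebf1, the gene of SREBP1, was at 207 and 107 CPM (0.518, 0.460 to 0.584), and Scarb1, a lipoprotein receptor, at 97.7 and 58.8 CPM (0.602, 0.508 to 0.714). Lbr, a nuclear membrane protein with sterol reductase activity, had a ratio of 0.180 (0.121 to 0.268), and Lipa, the lysosomal acid lipase, one of 0.473 (0.353 to 0.639). Lbr was at 30.9 and 5.55 CPM here, against 211 and 161 CPM in lymphocyte-like nuclei. Lipa was at 35.5 and 16.8 CPM, against 63.9 and 26.0 CPM there. The part of lymphocyte UMIs in these ratios was not tested. In ASPC-like nuclei 4 of 12 such genes had a ratio of 2 or more (Aacs, Gramd1b, Cyp27a1 and Cyp7b1) and 2 had one of 0.5 or less (Lbr and Gramd1a), against 24.9% and 8.6% of all genes. For Gramd1b the interval includes 1 (0.863 to 5.72). Centred on intronic length, its log2 ratio there was -1.34, on the other side of 0, with an interval that includes 0 (-2.56 to 0.17). In myeloid-like nuclei none of 12 had a ratio of 2 or more and 2 had one of 0.5 or less, against 24.4% and 12.8%. These were Arl4c and Gramd1a, with ratios of 0.474 (0.329 to 0.694) and 0.427 (0.299 to 0.615). In lymphocyte-like nuclei 1 of 12 had a ratio of 2 or more and 3 had one of 0.5 or less, against 16.1% and 19.6% of all genes. Gramd1b, a carrier that moves sterol from the plasma membrane, was at 56.9 and 269 CPM (4.73, 3.45 to 6.40). Its centred log2 ratio was 0.61 (0.16 to 1.05), which is below 2-fold. Gramd1a, Lipa and Arl4c had ratios of 0.359, 0.407 and 0.490. Mylip was at 197 and 433 CPM (2.19, 1.47 to 3.35) in endothelial-like nuclei.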

How the data were processed

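Nuclei from iWAT of 3 pooled mice per genotype were sequenced as 1 library each. The authors deposited UMI counts per gene and barcode made with Cell Ranger (6.1.1 per the file headers), and the submitters' processing notes also name Seurat 4 and mm10. Whether intronic reads were counted is not given in the sources used here. The matrices held 31053 genes and 5000 barcodes per library, and 12 barcodes occurred in both.

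Barcodes with at least 500 genes and at most 5% mitochondrial UMIs were kept (3649 labelled WT, 2944 labelled KO). Scrublet in scanpy 1.11.5 marked 92 doublets among nuclei labelled KO and 0 among those labelled WT, so the 4% of the latter with the highest scores (146) were removed. Nuclei of both libraries were clustered together in Seurat 5.3.0 under R 4.3.3 (2000 variable genes, 20 principal components, resolution 0.5) without integration, and clusters were named from marker lists. Counts were summed per class and library and divided by the class total to give CPM, with exact Poisson, Clopper-Pearson and conditional binomial 95% intervals (scipy 1.17.1). UMIs of 1 nucleus are not replicates of a condition, so the intervals cover counting error only. Comparisons took genes whose counts reached 50 over the libraries together, with ratios of 2 and 0.5 as thresholds. Intronic lengths came from an annotation of an older mouse build and were used only to place genes in 20 bins. For genes absent there, including Hmgcs1, the RefSeq gene span was used, a choice made after seeing the data. So were the settings that leave out Hmgcs1, Insig1 or Abca1. The member genes and the other lists were chosen with earlier results of these data known. All 30 genes were to be named, and of a second list of 19 pathway genes those past a ratio threshold, with exceptions marked in the text. TMM factors (edgeR 4.0.16) were an alternative scaling, and the ratio calculation was tested on simulated data. No column of per-sample values was left unused.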

Additional observations from a re-analysis of the deposited data

Results flagged for a closer look

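Abca1 differed in direction between classes. Its CPM ratio of labelled KO over labelled WT was above 1 in adipocyte-like (2.07), ASPC-like (1.88) and myeloid-like nuclei (1.76), and below 1 in lymphocyte-like (0.503) and endothelial-like nuclei (0.651). No interval of these ratios includes 1. At 1000 UMIs per nucleus, the difference in the share of nuclei with an Abca1 UMI (labelled KO minus labelled WT) was above 0 in the first 3 classes, but its interval includes 0 in lymphocyte-like (-5.97 points, -11.7 to 2.28) and endothelial-like nuclei (-5.65 points, -20.8 to 8.84). With 1 library per genotype the difference between classes was not tested. Centred on genes of like intronic length, the log2 ratios were 0.15, -0.09 and -0.19 in the first 3 classes and -1.95 and -1.52 in the other 2. The lymphocyte-like value rests on 22 UMIs in the library labelled KO. Endothelial-like nuclei of both libraries shared cluster 10, and the other 4 classes came mostly from different clusters in each library. In lymphocyte-like nuclei labelled WT, Abca1 was at 245 CPM in cluster 0 (B cell markers, 1228 nuclei) and 128 CPM in cluster 2 (T cell markers, 779 nuclei). Those labelled KO lay mostly in cluster 14 (T cell markers, 59 nuclei) and cluster 17 (B cell markers, 31 nuclei). The part of this mix in the lymphocyte-like ratio was not tested. In myeloid-like nuclei Abca1 was at 280 CPM in cluster 7 (labelled WT), and at 633 CPM in cluster 3 and 153 CPM in cluster 9 (both labelled KO), so the value above 1 is that of cluster 3.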

How the results depend on the processing

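With 1 library per genotype, all differences between libraries may be those of the pools, and depth, cell composition and genotype cannot be told apart. No paired analysis was possible because each group has 1 library. Leaving mitochondrial genes and Malat1 out of the totals moved every log2 ratio in adipocyte-like nuclei by -0.25. It gave ratios of all 30 genes of 0.658 (adipocyte-like), 0.804 (ASPC-like) and 0.842 (myeloid-like), synthesis 0.476, sensing 0.509 and transport 1.13 in adipocyte-like nuclei, transport 0.906 in myeloid-like nuclei, 0 genes at 2 or more and 13 at 0.5 or less. Centring on intronic length gave 0.831, 0.845 and 0.851 for the 3 classes, 0.673, 0.855 and 1.09 for the 3 roles, 0.835 for myeloid transport, and 0 and 5 genes. Thinning to 1000 UMIs gave 1.09 (ASPC-like, all genes), 0.500 (synthesis), 1.45 (transport), 0.943 (myeloid transport), 2 genes at 0.5 or less, and turned Idi1 from 0.573 to 1.14. How many genes had enough counts after thinning is not given. With at least 1000 genes per nucleus the adipocyte-like ratio of all genes was 0.757, myeloid transport 1.18 and 1 gene was at 2 or more, as it was with doublets kept. Resolution 0.2 gave 1.14 for myeloid transport. The difference in synthesis shares was -9.06 percentage points at 500 UMIs. Leaving out the leading gene, chosen after seeing the data, gave 0.819 (synthesis without Hmgcs1), 0.829 (sensing without Insig1), 1.01 (transport without Abca1) and 0.832 (myeloid transport without Abca1). Of the 29 genes in adipocyte-like nuclei, 12 moved beyond their interval with length centring, 11 with thinning and 5 without mitochondrial genes and Malat1. Idi1, which also left its interval under thinning, was counted apart from the 11 because its direction reversed. TMM scaling, doublets kept, at least 1000 genes, the genes left out of clustering and resolution 0.2 moved 0. Shares of all genes at these thresholds are given for the main setting and for length centring only. Except where the setting itself sets the shift, the cause was not tested.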

Other observations

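Ch25h, whose enzyme makes an oxysterol that acts on LXRs and INSIGs, was at 173 CPM (interval 128 to 229, 49 UMIs) in cluster 11, an unnamed cluster of 150 nuclei of the library labelled WT with Ccl19 and Ccl21a among its leading genes. Cyp27a1, a mitochondrial oxysterol enzyme, was higher in the library labelled KO in ASPC-like (42.9 and 120 CPM, 2.80-fold, 1.96 to 4.13) and myeloid-like nuclei (145 and 246 CPM, 1.69-fold, 1.36 to 2.12). Cyp7b1, an oxysterol hydroxylase, was at 5.20 and 34.4 CPM in ASPC-like nuclei, from 4 and 114 UMIs. Centred on intronic length, its log2 ratio was 1.22, with an interval that includes 0 (-0.18 to 3.12). Cluster 13, the 92 dividing lymphocyte-like nuclei of the library labelled WT with Top2a and Mki67 among its leading genes, had Sqle at 66.3 CPM (34.2 to 116) and Cyp51 at 77.3 CPM (42.3 to 130), on 12 and 14 UMIs. None of these was tested against a replicate.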
